A study of Mus musculus with 4 samples.

Results

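The cells described here are neurons of the embryonic mouse medial ganglionic eminence (MGE) in which the transcript of *St18* was counted. The cells were chosen by their own UMI counts, including that of *St18*. A barcode was taken when it held at least 3000 unique molecular identifiers (UMIs), at most 10% mitochondrial UMIs, at least 2 UMIs over the neuronal genes *Dcx*, *Stmn2* and *Mapt*, at most 1 UMI over the progenitor genes *Hes1* and *Hes5*, and at least 2 UMIs of *St18*. Of 19032 barcodes that passed the depth and mitochondrial limits in 4 libraries, 14284 met the neuronal gate and 1124 of these held at least 2 *St18* UMIs. They are called St18+ neurons. The 11562 neurons of the same gate with no *St18* UMI are called St18-0 neurons and serve as the comparison, and the 1598 neurons with exactly 1 *St18* UMI were kept apart.

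Single-cell RNA sequencing in 10x Genomics droplets had been performed on MGE dissected at e14.5, with 2 libraries from St18 (-/-) embryos, called null, and 2 from WT embryos. All embryos came from heterozygous parents of mixed C57/BL6 and ICR background, and tissue was pooled by genotype before dissociation, so each library is 1 pool with an unstated number of embryos. The null allele lacks 2 floxed exons of *St18* in the whole animal, removed by a germline Cre (E2a-Cre), which shifts the reading frame, and transcript can still be made from it. Counts of *St18* at the 3′ end of the transcript do not show whether the deleted exons are present, so *St18* UMIs in null cells are transcript counts and no check of the protein.

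The MGE is the part of the ventral telencephalon marked by the transcription factor Nkx2-1, and its progenitors make GABAergic interneurons that migrate to the cortex and projection neurons of the globus pallidus. Newborn neurons leave the cell cycle in the subventricular zone, keep or lose Nkx2-1 according to their fate, and then switch on cytoskeletal and synaptic genes as they mature. St18 belongs to the Myt family of zinc finger transcription factors with Myt1 and Myt1l and is expressed transiently during neurogenesis.

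Values of all libraries are given in the order null replicate 1, null replicate 2, WT replicate 1, WT replicate 2 unless named. The gate neurons numbered 4865, 2930, 3377 and 3112, and they held 172, 446, 228 and 278 St18+ neurons. The St18+ share was 3.54% in null replicate 1, with an exact Clopper-Pearson 95% interval of 3.03 to 4.09%. Null replicate 2 had 15.2% (13.9 to 16.6%). The WT libraries had 6.75% (5.93 to 7.65%) and 8.93% (7.95 to 9.99%). The library labelled null replicate 2 therefore held the largest share of St18+ neurons of the 4, and the library labelled null replicate 1 the smallest. These shares depend on depth, because the St18+ neurons were the deeper cells in every library: their median was 7583, 10231, 6709 and 6826 UMIs, against 6391, 8450, 5813 and 5720 in St18-0 neurons. With each cell thinned to 3000 UMIs the shares were 1.03%, 4.61%, 2.64% and 2.92%, with the same library highest and the same library lowest.

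**Figure D1:**
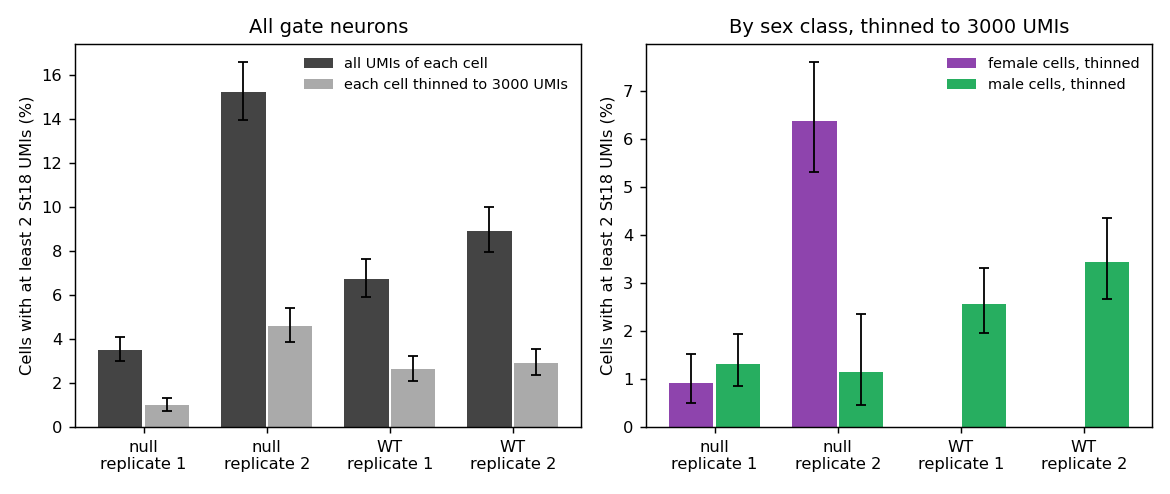
Share of gate neurons with at least 2 *St18* UMIs in each library, in percent of cells, with exact 95% binomial intervals. Left, all gate neurons with all their UMIs (dark) and after thinning to 3000 UMIs (light); right, thinned shares in cells classed female (purple) or male (green), where the WT libraries held no female cells. Null replicate 2 stands highest at 15.2% and 4.61%, and its excess lies in female cells at 6.39%.

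Because the rule used *St18*, these shares are given without a test, and the intervals cover counting error only. The same count was made where *St18* should be absent. Among erythroid barcodes, which should lack *St18*, 2 or more *St18* UMIs were found in 0 of 51, 0 of 41, 1 of 40 and 0 of 34 barcodes, at medians of 9970 to 13747 UMIs. With so few barcodes, a count of 0 still allows a share of up to 5.88 to 8.82%, taken as 3 counts over the barcodes and not as the exact interval. Among microglial barcodes it was 0 of 24, 0 of 10, 0 of 14 and 1 of 23. Droplets with under 100 UMIs carried *St18* at 13.8, 32.6, 19.97 and 20.99 CPM (UMIs of the gene per 1000000 UMIs summed).

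The share of female cells was higher in St18+ than in St18-0 neurons of null replicate 2, and somewhat lower in those of null replicate 1, where few cells were counted. Cells were classed female by at least 3 UMIs of *Xist* and male by Y-linked transcripts, and no WT gate neuron described here was classed female. In null replicate 2, 79.6% of the St18+ neurons were female, against 58.5% of its St18-0 neurons, and 83 of its 90 neurons with 6 or more *St18* UMIs were female. In null replicate 1, 43 of the 172 St18+ neurons (25%) were female, against 31.7% of its St18-0 neurons. The classes rest on UMI counts, and the St18+ neurons were the deeper cells. After thinning, the St18+ share of female neurons was 6.39% in null replicate 2 and 0.917% (95% interval 0.502 to 1.53%) in null replicate 1. In male neurons it was 1.33% (0.867 to 1.94%) and 1.15% in the null libraries and 2.58% and 3.44% in the WT libraries. The female and male intervals of null replicate 1 thus overlapped. In male cells alone the libraries labelled null lay below both WT libraries, but the value of null replicate 2 was 7 of 610 cells. Its interval of 0.463 to 2.35% overlapped the 1.96 to 3.33% of WT replicate 1. Whether the female cells of null replicate 2 carry the genotype of the label was not tested, and genotype and embryo sex cannot be told apart over whole libraries. The study's methods describe PCR genotyping of the embryos during dissection. The study also reported *St18* transcript in null neurons, at lower levels than in WT. For the comparisons between null and WT, values in male cells alone are therefore given as well.

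The number of *St18* UMIs per cell had a long tail in 1 library. The highest cell held 6, 23, 8 and 20 UMIs in the 4 libraries, and the median St18+ neuron held 2, 3, 3 and 2. Of the St18+ neurons, 121, 176, 111 and 166 sat at exactly 2 UMIs, next to the 477, 374, 363 and 384 neurons just outside the threshold at 1 UMI. Only 2, 1, 0 and 1 of the St18+ neurons had a barcode that also occurred in another library, and no barcode was an St18+ neuron in 2 libraries.

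The genes proposed as markers of these cells all stood higher in them. *Prox1*, a homeobox transcription factor, was at 213, 245, 206 and 165 CPM in the St18+ neurons. In the St18-0 neurons of the same libraries it was at 81.8, 88.3, 53.3 and 56.7 CPM, so no St18-0 value reached any St18+ value. Since these markers were picked with results of these data known, their values are a description and no test is given. *Tiam2*, an activator of the small GTPase Rac, stood at 57.96, 67.03, 77.2 and 66.1 CPM against 35.9, 37.9, 39.4 and 33.0 CPM. *Rnd2*, a GTP-binding protein that acts in the migration of newborn neurons, was at 128, 125, 116 and 138 CPM against 94.2, 94.9, 90.6 and 80.4 CPM. *Nav2*, a neuron navigator protein that binds microtubules, was at 152, 121, 89.6 and 103 CPM against 87.5, 85.9, 69.9 and 68.4 CPM. The groups were separate for all 4 markers, with the largest ratio for *Prox1* and the smallest for *Rnd2* and *Nav2*. The share of all genes that were separate in this way was not counted, so the separation is not read as a trait of the markers. In droplets with under 100 UMIs, *Prox1* was at 33.1 to 51.3 CPM, *Tiam2* at 10.5 to 27.2 CPM, *Rnd2* at 59.3 to 69.4 CPM and *Nav2* at 23.6 to 40.9 CPM. The St18-0 levels of all 4 markers lay above these in the same library. The log2 differences of *Prox1*, *Tiam2*, *Nav2* and *Rnd2* were 1.54, 0.85, 0.54 and 0.47 over all gate neurons and 0.95, 0.43, 0.46 and -0.06 in gate neurons with no UMI of *Stmn2* or *Mapt*, so that *Rnd2* was no higher there.

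*Prox1* also changed with the number of *St18* UMIs in the cell. In the neurons with 0, 1, 2, 3 and 4 or more *St18* UMIs, it was at 53.3, 117, 164, 217 and 263 CPM in WT replicate 1 and at 88.3, 160, 180, 223 and 309 CPM in null replicate 2. In WT replicate 2 the values were 56.7, 125, 156, 186 and 171 CPM, and in null replicate 1 they were 81.8, 146, 190, 316 and 196 CPM, with the last 2 from 26 and 25 cells. Neurons just outside the threshold thus lay between the St18-0 and the St18+ neurons in every library, and the level rose through the first 3 steps everywhere. *Stmn2*, which encodes a microtubule regulator of growing axons, and *Mapt*, which encodes tau, ran the other way although the gate had asked for them or *Dcx*. *Stmn2* fell from 929, 737, 948 and 1240 CPM at 0 UMIs to 344, 379, 376 and 686 CPM at 2 UMIs, and *Mapt* from 279, 272, 228 and 291 CPM to 62.4, 130, 65.5 and 122 CPM. *Dcx*, on in young migrating neurons, was at 701, 781, 571 and 572 CPM in the St18+ neurons against 690.1, 904, 671 and 616 CPM.

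**Figure D2:**
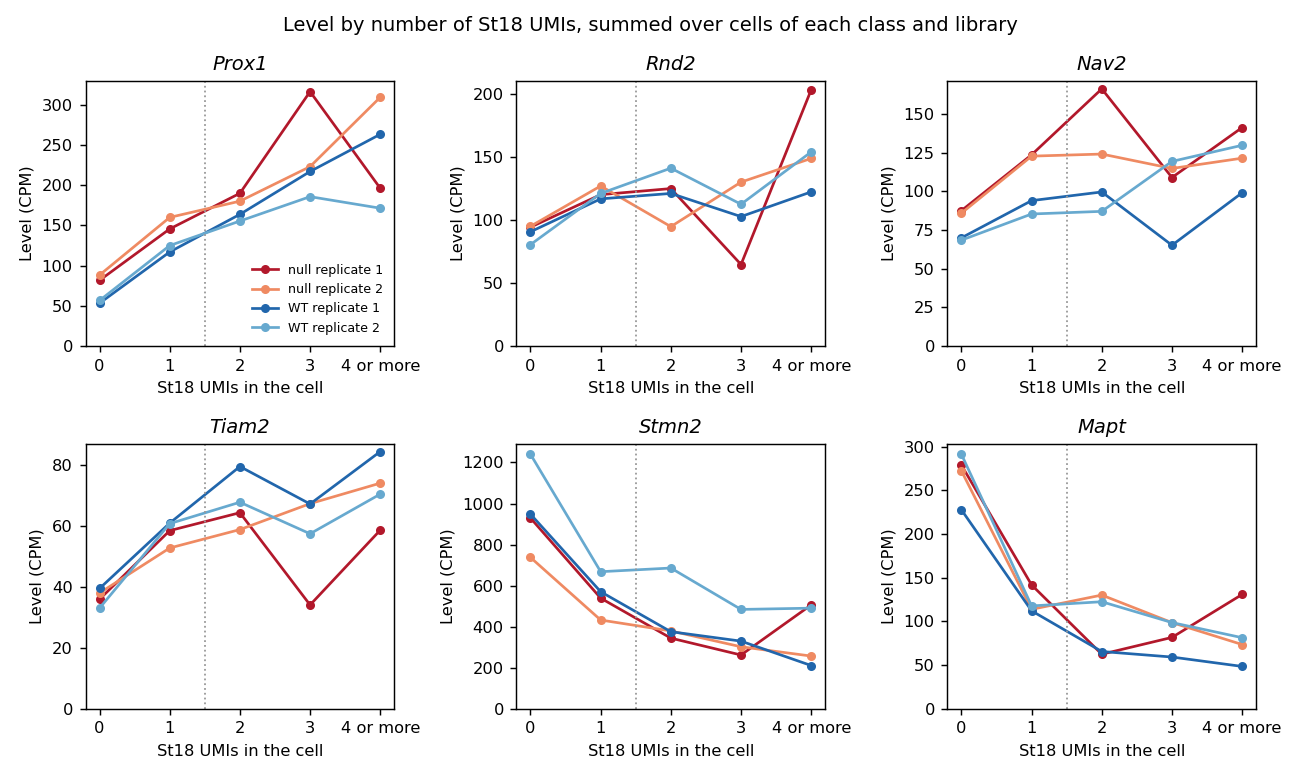
Levels in CPM of the 4 markers and 2 genes of the gate against the number of *St18* UMIs in the cell, with 1 line per library and 1 point per class of cells summed; the dotted line is the threshold of the rule. *Prox1* rises from 53.3 to 88.3 CPM at 0 UMIs to 156 to 190 CPM at 2 UMIs, while *Stmn2* and *Mapt* fall; classes of 3 or more UMIs in null replicate 1 hold 26 and 25 cells.

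The sequence upstream of *Prox1* is shown because its level moved with the count of *St18*, and proteins of the Myt family bind DNA motifs with the core AAGTT. *Prox1* lies on chromosome 1 (GRCm38, positions 190118035 to 190170714, minus strand), and RefSeq lists starts with these 250 bases before them (GRCm38.p6, minus strand, written 5′ to 3′), with AAGTT on either strand in capitals.

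Prox1 upstream start A: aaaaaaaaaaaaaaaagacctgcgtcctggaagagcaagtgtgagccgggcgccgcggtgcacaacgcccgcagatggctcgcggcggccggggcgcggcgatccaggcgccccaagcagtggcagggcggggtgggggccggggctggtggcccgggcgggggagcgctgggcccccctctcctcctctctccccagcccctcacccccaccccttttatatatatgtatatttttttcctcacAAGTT
Prox1 upstream start B: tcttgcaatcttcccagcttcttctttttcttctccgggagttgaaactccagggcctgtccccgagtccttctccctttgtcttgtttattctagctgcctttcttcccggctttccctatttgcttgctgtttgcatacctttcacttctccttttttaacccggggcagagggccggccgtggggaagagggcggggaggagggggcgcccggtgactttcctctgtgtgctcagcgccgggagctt

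The window of start A, at chr1:190170828-190171077, held 1 AAGTT, whose first base is 5 bases before the start, and that of start B, at chr1:190169516-190169765, held none. The longer motif AAAGTTT was in neither. On either strand of the 250 bases before the start, AAGTT was found in 35.3% of 32851 RefSeq promoters and AAAGTTT, which contains it, in 4.20%, so a window with AAGTT is common. A match is a description of the letters and not a binding site.

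The comparison of St18+ with St18-0 neurons asked what else set apart the neurons that carried the transcript, with the library as a block. The St18+ neurons stood higher in *Nkx2-1* and lower in 9 of 11 genes of maturing neurons and 9 of 10 genes of the neighbouring lateral eminence. With edgeR's quasi-likelihood test, 1806 of 12769 genes were higher in St18+ neurons at an adjusted p of 0.05, which is 14.1%, and 1874 were lower, which is 14.7%. The counts of gene lists are to be read beside these shares. The median log2 difference over all genes was 0.01. With both groups limited to cells of 5000 to 10000 UMIs, 1007 genes were higher (8.67%) and 1239 lower (10.7%), and in male cells alone 638 were higher (5.83%) and 894 lower (8.17%). These are sums over cells, so fewer cells with a transcript and less of it in each cell cannot be told apart.

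Maturity moved with this comparison, and its part in the other differences was not tested beyond the restricted comparison given below. Of 11 genes of maturing neurons, 9 fell and none rose, with a median log2 difference of -0.64. *Gap43*, a growth cone protein, was at 63.3, 68.9, 65.9 and 136 CPM in the St18+ neurons, against 278, 261, 263 and 349 CPM (log2 difference -1.83 ± 0.08 SE, adjusted p = 2.24e-14, edgeR quasi-likelihood test). *Syt1*, a synaptic vesicle protein, fell by 0.94 on the log2 scale and the intermediate filament gene *Ina* fell by 1.17. Of 10 genes of newborn neurons, 4 rose and none fell, with a median of 0.09. They were *Insm1*, *Sox11*, *Dll3* and *Btg2*, with log2 differences of 0.51, 0.20, 0.42 and 0.35. In neurons without *Stmn2* and *Mapt* UMIs, a restriction described below, none of the 10 passed, and these 4 lay at 0.29, -0.0082, -0.12 and 0.02. Of all genes tested under that restriction, only 0.495% were higher.

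Transcripts of cycling cells were present in the St18+ neurons although the gate had limited *Hes1* and *Hes5*. Of 9 progenitor genes tested, 4 rose (*Mki67*, *Top2a*, *Vim* and *Sox2*) and 2 fell (*Ccnd1* and *Fabp7*). *Top2a*, used in mitosis, stood at 825, 1004, 917 and 729 CPM in St18+ and 677, 654, 575 and 582 CPM in St18-0 neurons. The higher *Mki67* and *Top2a* were lost between 5000 and 10000 UMIs, with log2 differences of -0.13 and 0.04 there. To hold maturity closer, both groups were also limited to neurons with no UMI of *Stmn2* or *Mapt*, which left 29, 57, 41 and 24 St18+ neurons. There 33 of 6668 genes were higher (0.495%) and 60 were lower (0.9%). Of the 93, 85 had also been called in the full comparison, counted without regard to direction. *Zic1* and *Epha4* passed here against their direction in the full comparison. Of the 2417 genes called in the full comparison and tested here, 1825 kept their direction. With so few calls, a list without a gene that passed there does not show that its difference was lost. None of the 7 progenitor genes tested passed there, nor did any of 3 genes of the caudal eminence and 7 Polycomb genes, while 1 of 8 genes of maturing neurons, 5 of 10 of cortical interneurons, 3 of 12 microtubule genes and 6 of 13 guidance genes fell and 3 of 7 MGE and pallidal genes and 1 guidance gene rose.

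**Figure D3:**
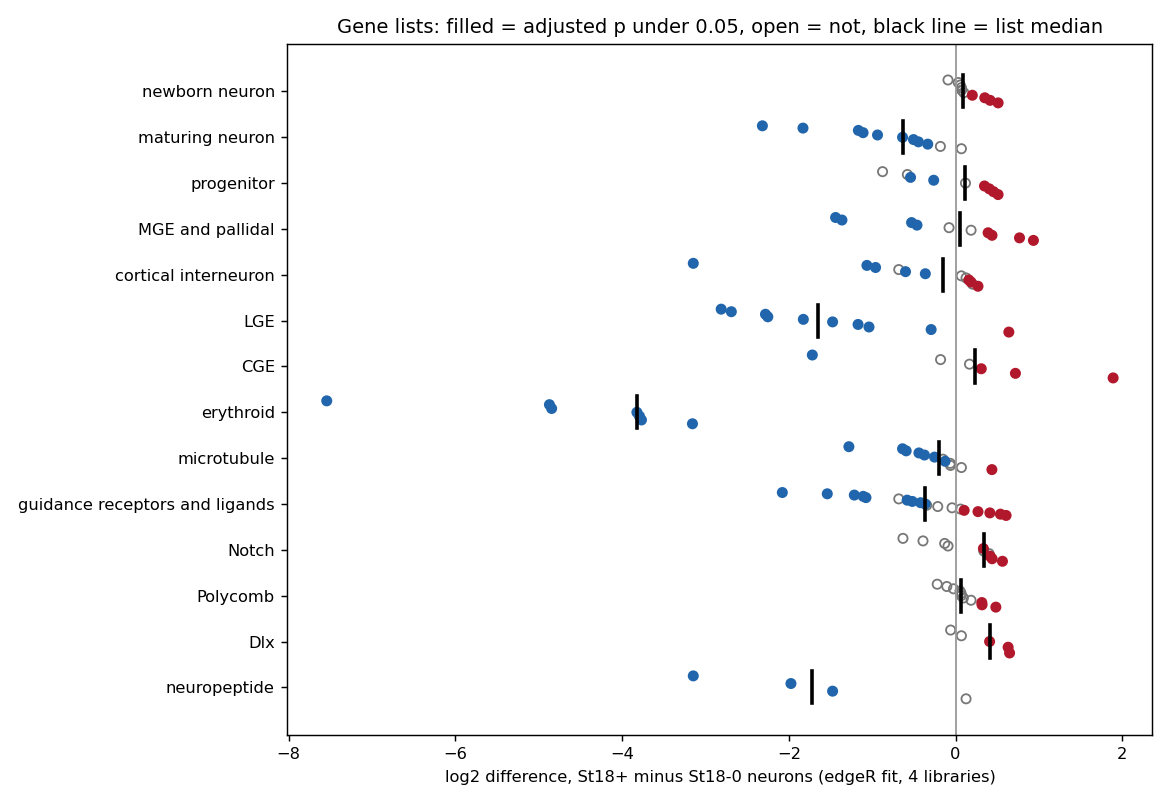
log2 difference of St18+ minus St18-0 neurons from the edgeR fit over 4 libraries for the members of 14 gene lists, without the 5 marker genes of the cells; filled points passed an adjusted p of 0.05 (red higher, blue lower), open points did not, and black lines are list medians. The LGE, maturing neuron, neuropeptide and erythroid lists lie mostly below 0, with medians of -1.65, -0.64, -1.72 and -3.82, and the Dlx and Notch medians lie at 0.41 and 0.34.

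Genes of MGE identity split. *Nkx2-1* was at 565, 575, 595 and 533 CPM in St18+ neurons and at 363, 311, 310 and 331 CPM in St18-0 neurons, with no overlap (mean 567 ± 25.9 SD against 329 ± 24.8 SD, n = 4 libraries; log2 difference 0.77 ± 0.05 SE, adjusted p = 5.81e-12, edgeR quasi-likelihood test). *Lhx6*, which acts downstream of Nkx2-1 in MGE neurons, rose by a log2 difference of 0.39, *Sox6* by 0.44 and *Etv1* by 0.93. *Lhx8*, a factor of cholinergic and pallidal neurons, was at 167, 183, 199 and 236 CPM against 199, 170, 206 and 254 CPM and did not pass (adjusted p = 0.30, edgeR quasi-likelihood test). *Gbx1* and *Gbx2*, homeobox genes of the MGE mantle, fell by 1.36 and 1.44 on the log2 scale from low levels, and *Zic1* and *Lmo3* fell by 0.53 and 0.46. *Zic1* passed in the other direction in neurons without *Stmn2* and *Mapt* UMIs, at 0.69 (adjusted p = 0.045, edgeR quasi-likelihood test). Of the 10 MGE and pallidal genes, 4 rose and 4 fell.

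After thinning to 3000 UMIs, which removes the difference in depth, *Nkx2-1* was found in 72.1%, 74.0%, 75.9% and 74.1% of St18+ neurons and in 51.6%, 45.4%, 46.7% and 48.7% of St18-0 neurons. *Prox1* was found in 43.0%, 43.7%, 41.7% and 38.8% against 17.0%, 18.3%, 12.5% and 12.7%. *Lhx8* was found in similar shares of both groups, at 28.1 to 35.97% against 25.8 to 37.3%. *Nkx2-1* and *Lhx6* were found together in 52.9%, 56.95%, 53.5% and 49.3% of the thinned St18+ neurons and in 33.7%, 31.5%, 28.97% and 29.2% of the thinned St18-0 neurons. Erythroid barcodes, which should lack these genes and were thinned the same way, held *Nkx2-1* in 0 to 7.84% of 34 to 51 barcodes per library, *Lhx6* in 0 to 7.32% and *Prox1* in 0 to 2.50%. None held *Nkx2-1* and *Lhx6* together, which allows a share of up to 5.88 to 8.82%, again taken as 3 counts over the barcodes.

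**Figure D4:**
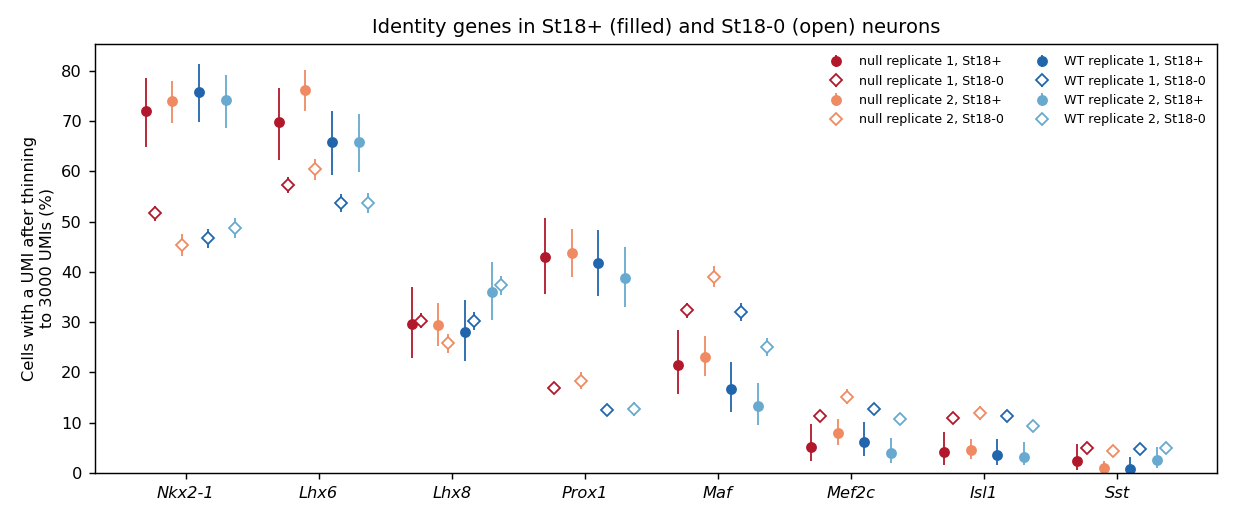
Share of cells with at least 1 UMI of 8 identity genes after each cell was thinned to 3000 UMIs, in percent, for St18+ (filled) and St18-0 (open) neurons of each library, with exact 95% binomial intervals. *Nkx2-1* and *Prox1* are separate in all 4 libraries, for *Prox1* at 38.8 to 43.7% against 12.5 to 18.3%, and *Maf*, *Mef2c* and *Isl1* lie lower in the St18+ neurons of each library.

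Of 12 genes of cortical interneurons, 5 fell, 3 rose and 4 did not pass, with a median of -0.15. *Maf*, a transcription factor of MGE interneurons, was at 121, 157, 83.4 and 76.9 CPM in St18+ and 191, 301, 199 and 148 CPM in St18-0 neurons (log2 difference -0.96 ± 0.06 SE, adjusted p = 3.14e-11, edgeR quasi-likelihood test), and it fell by 2.22 in neurons without *Stmn2* and *Mapt* UMIs. *Mef2c*, a factor of parvalbumin interneurons, fell by 1.06, the receptor gene *Erbb4* by 0.60 and the chemokine receptor gene *Ackr3* by 0.36. *Sst*, which encodes somatostatin, was at 4.18, 5.52, 3.94 and 53.9 CPM against 92.2, 102, 193 and 159 CPM. The high value of WT replicate 2 came from 115 UMIs, 91 of them in 3 cells. *Epha4*, an ephrin receptor, and *Zeb2*, a factor that directs interneurons to the cortex, rose by 0.27 and 0.19, as did *Satb1* by 0.16, but *Epha4* and *Zeb2* lay at -0.40 and -0.32 in neurons without *Stmn2* and *Mapt* UMIs, where *Epha4* passed in that direction (adjusted p = 0.013, edgeR). *Npy*, a neuropeptide gene, was at 428, 412, 469 and 444 CPM against 428, 379, 460.5 and 326 CPM and did not pass (adjusted p = 0.075, edgeR quasi-likelihood test). It passed between 5000 and 10000 UMIs at 0.40 (adjusted p = 5.3e-06, edgeR) and in male cells at 0.24 (adjusted p = 0.027, edgeR), and in the other direction without *Stmn2* and *Mapt* UMIs at -0.47 (adjusted p = 0.024, edgeR).

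Genes of the lateral ganglionic eminence (LGE), the neighbouring zone that makes striatal neurons, were lower. Of 10 tested, 9 fell and 1, *Tshz1*, rose, with a median of -1.65. *Isl1*, a LIM homeobox gene of striatal and cholinergic neurons, was at 28.1, 29.1, 15.8 and 31.9 CPM in St18+ and 92.2, 106, 96.2 and 74.6 CPM in St18-0 neurons. *Ebf1* fell by 2.81 on the log2 scale and *Foxp2* by 2.25. In neurons without *Stmn2* and *Mapt* UMIs none of the 5 LGE genes tested passed, and *Isl1* lay in the other direction at 0.74 (adjusted p = 0.34, edgeR quasi-likelihood test). Of all genes tested there, only 0.9% were lower. Of 6 genes of the caudal eminence (CGE) other than *Prox1*, 3 rose (*Htr3a*, *Nr2f2* and *Nr2f1*) and 1 fell: *Adarb2*, an RNA editing family gene of CGE interneurons, was at 19.7, 24.9, 22.0 and 40.3 CPM against 73.4, 88.9, 70.2 and 108 CPM. *Htr3a*, a serotonin receptor gene, was at 18.5, 13.8, 10.1 and 13.6 CPM against 5.70, 2.84, 3.14 and 3.89 CPM.

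Some genes of the GABAergic programme stood higher. Of 5 Dlx genes, 3 rose (*Dlx1*, *Dlx2* and *Dlx6os1*) with log2 differences of 0.63, 0.41 and 0.65, and *Gad1* and *Abat*, which make and break down GABA, rose by 0.43 and 0.40. In neurons without *Stmn2* and *Mapt* UMIs *Dlx6os1* was the only one of the 5 Dlx genes to pass, and *Gad1* and *Abat* lay at 0.07 and 0.63 and did not (adjusted p = 0.93 and 0.11, edgeR). *Dlx6os1* overlaps *Dlx6* on the other strand, and the use of strand in the counting is not given in the sources used here. Of 10 Notch genes, 4 rose and none fell: *Notch1* by 0.56, *Mfng* by 0.44, *Dll3* by 0.42 and *Rbpj*, the DNA-binding partner of Notch, by 0.33. None of the 5 Notch genes tested without *Stmn2* and *Mapt* UMIs passed, where 0.495% of all genes were higher, and *Mfng* and *Dll3* lay at -0.24 and -0.12 there. Of the neuropeptide genes 3 of 4 tested fell (*Sst*, *Pnoc* and *Tac1*). In male cells 1, *Sst*, fell and 1, *Npy*, rose, while *Tac1* lay at 0.17.

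Within the Myt family, *Myt1* rose and *Myt1l* fell. *Myt1* was at 125, 121, 105 and 97.6 CPM in St18+ neurons and at 85.6, 100, 74.6 and 64.9 CPM in St18-0 neurons (log2 difference 0.42 ± 0.06 SE, adjusted p = 3.81e-06, edgeR quasi-likelihood test). *Myt1l*, which comes on in maturing neurons, was at 167, 221, 153 and 206 CPM against 218, 288, 229 and 260 CPM, a fall by 0.43 on the log2 scale. In neurons without *Stmn2* and *Mapt* UMIs the differences were 0.31 and -0.04, and neither passed. Of 11 Polycomb genes, whose proteins silence chromatin, 3 rose: *Ezh2*, *Suz12* and *Cbx2*, by 0.32, 0.32 and 0.48. Over all genes tested 14.1% rose, and the median of the Polycomb list was 0.07, so the count is not read as a trait of the list. *Cbx7*, a Polycomb reader, was at 1.79, 3.31, 1.69 and 2.35 CPM in St18+ and 1.89, 2.94, 1.90 and 2.27 CPM in St18-0 neurons, too few counts to show a difference (adjusted p = 0.93, edgeR quasi-likelihood test).

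Genes of cell shape and guidance changed in both directions. *Rnd3*, the close relative of *Rnd2*, was at 356, 328, 353 and 287 CPM against 266, 252, 227 and 200 CPM (log2 difference 0.46), and *Rac3* fell by 1.42. Of 12 microtubule genes other than *Nav2*, 7 fell and 1, *Dclk2*, rose. Of 19 guidance receptors and ligands, 9 fell and 5 rose. *Epha5*, an ephrin receptor, was at 304, 359, 233 and 159 CPM in St18+ and 534, 719, 547 and 411 CPM in St18-0 neurons, and *Nrp2*, a semaphorin receptor of interneurons that migrate to the cortex, fell by 1.54, while the ephrin gene *Efna5* rose by 0.54 and *Slit1*, a repellent, by 0.61.

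The genes with the largest rise, among those at 20 CPM or more that went the same way in all 4 libraries and also passed between 5000 and 10000 UMIs, were, beside the marker *Prox1*, *Prox1os*, *Mfap4*, *Nfix*, *Lgi1*, *Nfia*, *Dach1*, *Abca1*, *Cdc6* and *Sfta3-ps*. *Nfix*, a nuclear factor I transcription factor, was at 107, 136, 111 and 98.0 CPM in St18+ and 39.3, 51.9, 25.9 and 33.2 CPM in St18-0 neurons (log2 difference 1.55 ± 0.08 SE, adjusted p = 3.95e-13, edgeR quasi-likelihood test). *Nfia*, of the same family, was at 201, 198, 151 and 137 CPM against 66.9, 89.6, 53.9 and 56.8 CPM. *Mfap4*, which encodes an extracellular matrix protein, was at 106, 75.3, 86.8 and 67.1 CPM against 32.5, 26.7, 23.8 and 21.1 CPM, and *Dach1*, a transcriptional regulator, was at 99.8, 93.4, 85.1 and 65.2 CPM against 40.7, 41.1, 31.5 and 29.0 CPM.

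The groups did not overlap for any of these 4 genes, which is a description, since the rule had picked them by size and direction of the difference. In the neurons without *Stmn2* and *Mapt* UMIs, *Nfix*, *Nfia*, *Dach1*, *Abca1*, *Mfap4* and *Sfta3-ps* still passed, at log2 differences of 1.19, 1.13, 1.11, 1.05, 0.79 and 0.59, and so did *Nkx2-1* at 0.53 (adjusted p = 0.0031, edgeR quasi-likelihood test). The antisense transcript *Prox1os* (chromosome 1, GRCm38, 190170296 to 190217276, plus strand) overlaps only the first part of *Prox1*, from 190170296 to 190170714. Reads from that stretch cannot be told apart where the use of strand is not stated. The 3′ end of *Prox1*, at 190118035, lies outside it. *Sfta3-ps* lies beside *Nkx2-1* on chromosome 12.

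**Figure D5:**
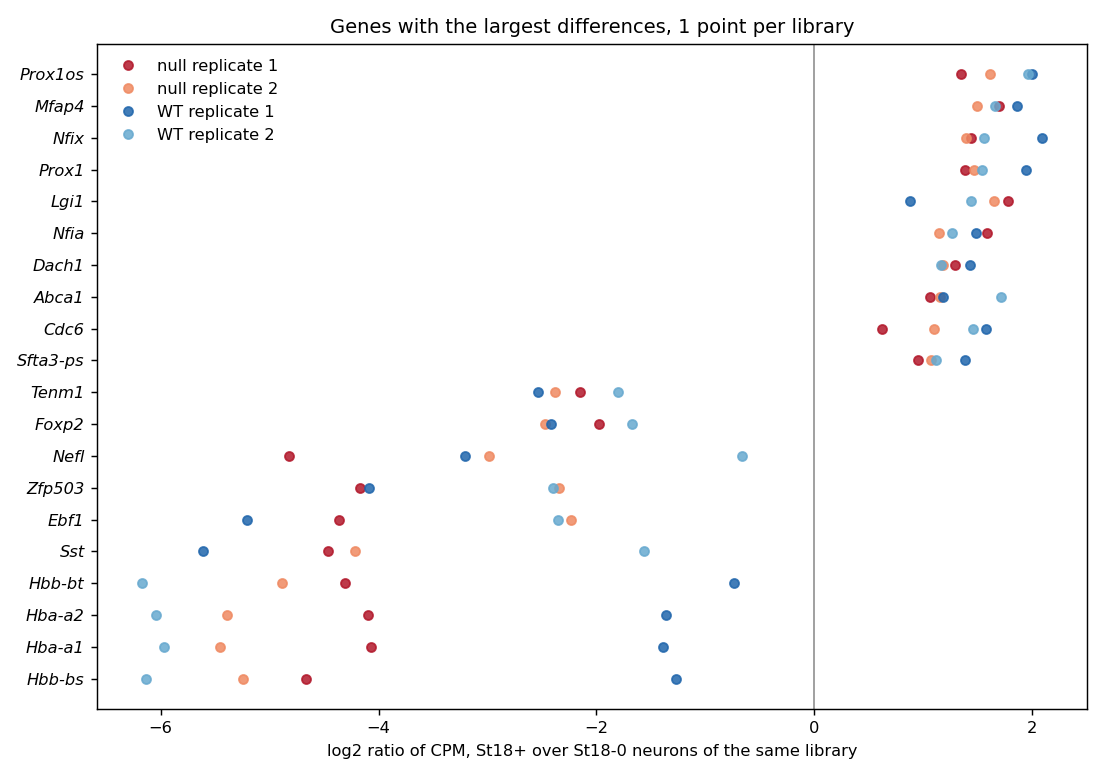
log2 ratio of the CPM in St18+ over St18-0 neurons of the same library (x axis) for the 10 genes with the largest rise and the 10 with the largest fall under the limits in the text, the marker *Prox1* shown as a description, with 1 point per library. The rule took only genes that went the same way in all 4 libraries, so the side of 0 is set by it. The globin genes of WT replicate 1 and *Sst* and *Nefl* of WT replicate 2 lie apart from the other libraries.

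Under the same limits the genes with the largest fall were *Hbb-bs*, *Hba-a1*, *Hba-a2*, *Hbb-bt*, *Sst*, *Ebf1*, *Zfp503*, *Nefl*, *Foxp2* and *Tenm1*. The globin genes *Hba-x* and *Hbb-y* had larger log2 differences (-4.87 and -4.85) but were not lower in WT replicate 1. *Zfp503*, a zinc finger gene of striatal neurons, was at 2.39, 14.0, 2.82 and 5.63 CPM in St18+ and 42.9, 71.0, 47.9 and 29.6 CPM in St18-0 neurons, and *Nefl*, a neurofilament gene, was at 1.19, 3.68, 2.25 and 16.9 CPM against 33.9, 29.2, 20.8 and 26.7 CPM. The globin genes mark red blood cells. *Hbb-bs* was at 25.1, 29.5, 398 and 29.1 CPM in St18+ and 638, 1120, 956 and 2050 CPM in St18-0 neurons, and 640 of the 706 *Hbb-bs* UMIs of the St18+ neurons in WT replicate 1 lay in 1 cell. When barcodes with over 1% erythroid UMIs or at least 2 microglial or endothelial UMIs were left out, the log2 difference of *Hbb-bs* was -0.39 in place of -3.82, while those of *Sst*, *Ebf1*, *Zfp503*, *Nefl*, *Foxp2* and *Tenm1* stayed at -3.14, -2.79, -2.68, -2.30, -2.28 and -2.21. There *Hbb-bs* still passed (adjusted p = 0.00066, edgeR), but *Hba-a1*, *Hba-a2* and *Hbb-bt* lay at -0.13, -0.14 and -0.09 and did not (adjusted p = 0.51, 0.52 and 0.68, edgeR).

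Markers of other cell types were also counted in the St18+ neurons. All 7 erythroid genes fell, and their summed level was 71.1 to 939 CPM in St18+ and 1358 to 4957 CPM in St18-0 neurons. At least 2 erythroid UMIs were found in 16.3%, 21.5%, 17.98% and 13.3% of the St18+ and in 12.9%, 20.2%, 15.97% and 11.6% of the St18-0 neurons. The list of oligodendrocyte precursor genes summed to 29.3 to 36.4 CPM in St18+ and 25.9 to 36.6 CPM in St18-0 neurons, and of its 3 genes tested 1 rose, the receptor gene *Pdgfra* (log2 difference 0.96). None of the 6 microglia genes tested passed (1 at an unadjusted p under 0.05), and their sum was 0.563 to 1.66 CPM in 3 libraries and 98.5 CPM in WT replicate 2. The endothelial list summed to 2.39 to 12.7 CPM and the pallial list to 1.13 to 10.9 CPM.

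The comparison of null with WT within the St18+ neurons asked whether loss of St18 changed the neurons that still carried its transcript. None of the identity genes above passed. With edgeR's quasi-likelihood test on 4 sums, 6 of 10040 genes were higher in null (0.0598%) and 44 were lower (0.438%). With library totals in place of TMM scaling, which shifted the median log2 difference of all genes from 0.01 to 0.12, 18 were higher and 18 lower. In male cells alone no gene passed with edgeR (0% of 8980, 870 at an unadjusted p under 0.05), while DESeq2 called 27. Without barcodes found in more than 1 library, 2 were higher and 6 lower. Leaving out 1 library, where the library left of its genotype is assumed to vary like the other genotype, moved the count in both directions. Of 132 entries of 18 lists other than the erythroid and sex lists, none passed, with 33 at an unadjusted p under 0.05 (25%), against 1350 of the 10040 genes (13.4%).

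Of the values given above, those of *Prox1* were 213 and 245 CPM for null and, for WT, 206 and 165 CPM, those of *Nkx2-1* 565 and 575 CPM against 595 and 533 CPM, and those of *Rnd2* 128 and 125 CPM against 116 and 138 CPM. The ranges overlapped for *Nkx2-1* and *Rnd2*, and *Prox1* did not pass either (log2 difference 0.20 ± 0.15 SE). *Maf* had 121 and 157 CPM in null against 83.4 and 76.9 CPM, and *Sst* 4.18 and 5.52 against 3.94 and 53.9 CPM. Both lay just outside the threshold with an adjusted p of 0.055 from edgeR, and at 0.45 in male cells. For *Sst* the WT values lay on both sides of the null values, and the high value of WT replicate 2 rested on few cells, as given above. *Zeb2* had 819 and 791 CPM in null against 592 and 463 CPM (adjusted p = 0.13, edgeR). *Epha4* had 760.0 and 980.4 CPM against 582 and 626 CPM (adjusted p = 0.20, edgeR). In male cells *Prox1*, *Zeb2* and *Epha4* lay at 0.28, 0.63 and 0.39 and did not pass (adjusted p = 0.63, 0.23 and 0.50, edgeR).

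The genes that passed were led by the sex of the pools. *Xist*, the transcript of the inactive X chromosome, was at 594 and 1923 CPM in the St18+ neurons of the null libraries and at 0 and 0.469 CPM in those of the WT libraries, and *Tsix*, its antisense partner, at 48.4 and 176 CPM against 0 in both. *Pde1c*, a cyclic nucleotide phosphodiesterase gene, was at 55.6 and 44.6 CPM against 24.2 and 19.7 CPM (log2 difference 1.05 ± 0.22 SE, adjusted p = 0.040, edgeR quasi-likelihood test). *Zer1* was at 42.4 and 39.2 CPM against 14.7 and 20.6 CPM, and *Epb41l4a* at 28.1 and 27.8 CPM against 11.3 and 12.2 CPM. Between 5000 and 10000 UMIs and in male cells neither *Pde1c*, *Zer1* nor *Epb41l4a* passed, with log2 differences in male cells of 1.38, 0.99 and 1.58.

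Among the lower genes the largest changes were *Hbb-bt*, *Hbb-bs*, *Hba-a2*, *Hba-a1* and *Rpl9-ps6*. The globin genes rested on WT replicate 1 and its 1 cell: *Hbb-bt* had 241 and 11.7 CPM in the WT libraries and 13.7 and 11.05 CPM in the others. *Rpl9-ps6*, a ribosomal pseudogene whose reads may be shared with its parent gene, was at 19.7 and 20.4 CPM against 42.8 and 44.1 CPM. Named after their values were seen, the histone genes *Hist1h1d* and *Hist1h1e* fell by 1.05 and 0.74 on the log2 scale and the regulator gene *Id2* by 0.78. By symbol, a grouping made after the values were seen and not tested, the 44 lower genes held 9 of the 49 histone genes tested. They also held 13 of the 92 genes of oxidative phosphorylation and 3 of the 89 ribosomal protein genes, against 0.438% of all genes tested. *Gm42418*, a transcript that overlaps ribosomal RNA, was lower with them (log2 difference -1.05): the null libraries had 9033 and 16553 CPM and the WT libraries 24820 and 24036 CPM, and its part in these differences was not tested. In male cells *Rpl9-ps6*, *Hist1h1d*, *Hist1h1e*, *Id2* and *Gm42418* lay at -1.38, -1.09, -0.80, -0.95 and -1.12, and none passed (adjusted p = 0.14, 0.11, 0.13, 0.24 and 0.087, edgeR). In St18-0 neurons the same comparison called 3 of 13882 genes, all higher in null (0.0216%, and 0.00767% in male cells): *Xist*, *Tsix* and *Gm35082*, which was at 4.46 and 8.88 CPM against 0.0560 and 0 CPM. *Rpl9-ps6*, *Hist1h1d*, *Hist1h1e*, *Id2* and *Gm42418* did not pass there but were also lower in both null libraries. *Rpl9-ps6* was at 18.9 and 19.98 CPM against 38.8 and 32.9 CPM, and *Hist1h1d* at 91.6 and 111 against 181 CPM in both. *Hist1h1e* was at 605 and 603 against 909 and 890 CPM. *Id2* was at 71.5 and 63.8 against 88.7 and 72.8 CPM. *Gm42418* was at 10827 and 19230 against 27035 and 26419 CPM. None of these passed in the interaction test below.

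Whether the St18+ against St18-0 difference itself depended on genotype was tested as an interaction over 8 sums. With edgeR's quasi-likelihood test, 2 of 13370 genes had a positive interaction, taken as null minus WT (0.015%), and 4 a negative one (0.0299%), and DESeq2 called 0, with 75 at an unadjusted p under 0.05. *Epha5*, named above, was lower in St18+ neurons of every library, by less in null (an interaction of 0.43 with an SE of 0.09 and an adjusted p of 0.030 by edgeR). This call was lost in male cells (0.13, adjusted p = 0.99, edgeR), and the direction turned between 5000 and 10000 UMIs (-0.17) and without *Stmn2* and *Mapt* UMIs (-0.39). *Sox3*, a progenitor transcription factor, was at 22.7 and 15.7 CPM in St18+ and 14.9 and 12.2 CPM in St18-0 neurons of null, and at 35.5 and 26.7 against 8.23 and 10.4 CPM in WT, an interaction of -1.23. *Crabp1* and *Tac1* rested on few cells: 54 of the 56 *Tac1* UMIs of St18+ neurons in WT replicate 2 and 39 of the 60 *Crabp1* UMIs in null replicate 2 each lay in 1 cell. *Nefm*, a neurofilament gene, had an interaction of -0.96, which turned to 0.19 between 5000 and 10000 UMIs. In male cells *Sox3*, *Crabp1*, *Tac1* and *Nefm* lay at -0.95, 1.37, -2.13 and -0.74, and none passed (adjusted p = 0.96, 0.96, 0.97 and 0.96, edgeR). All 40 UMIs of *Tyrobp*, a microglial gene that also passed, lay in 1 cell of WT replicate 2. In male cells 1 gene passed, lower in null (0.00868%): the embryonic globin gene *Hbb-y*, named after its value was seen.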

How the data were processed

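Raw UMI counts per gene and barcode were analysed as deposited, 1 matrix for each of 4 libraries of e14.5 mouse MGE (2 null, 2 WT), with 92984713, 89094919, 72640295 and 70991150 UMIs in null replicates 1 and 2 and WT replicates 1 and 2. Per the submitters' processing notes and the study's methods, the authors made the counts with Cell Ranger 5.0.1 on GRCm38, while the file headers name Cell Ranger 4. The matrices held all barcodes and were neither normalized nor filtered. Gene positions came from GENCODE M21 (GRCm38), where 99.61% of 32285 gene identifiers were found. Replicate numbers were given in accession order, as no label has any, and nothing in the labels says that the pools were separate litters, so p-values measure the spread between these libraries.

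The members, lists and comparisons were chosen with earlier results of these data known. Cells were gated on UMIs as described, and no doublet caller was run; limits at the 95th percentile of UMIs and a window of 5000 to 10000 UMIs stand in for one. Counts were summed per library over St18+ and over St18-0 neurons and tested with edgeR 4.0.16 (R 4.3.3; TMM, filterByExpr, quasi-likelihood F-test, two-sided, Benjamini-Hochberg adjustment over all genes tested, threshold 0.05), with the library as a block where St18+ and St18-0 neurons were compared, since both sums come from the same pool. *St18* and the genes of the gate were left out of that test. DESeq2 1.42.0 was an alternative. CPM values are UMIs per 1000000 UMIs of the summed cells, without TMM scaling. Thinning drew 3000 UMIs from each cell with a fixed seed. Genes were named by a rule: the markers, 20 listed genes, at most 10 each way by size of difference, at 20 CPM or more, at most 5 each way for the genotype comparisons and up to 4 of each list; genes outside it are named as examples of counts of lists. Some genes and gene lists are not reported here.

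On simulated counts with known changes, the St18+ against St18-0 test recovered 97% of genes changed by 1 on the log2 scale (12819 genes run), and the null against WT test in St18+ neurons 61.9% of them (10106 genes run). They also called 11 and 6 unchanged genes. The simulation changed only genes with many counts and used 1 fixed dispersion. For null against WT it added no other difference between libraries, so recovery in the real data may be lower. Upstream sequences came from RefSeq (GRCm38.p6). Tables were made in Python 3.11.15 (pandas 2.3.3, numpy 2.4.6), intervals in scipy 1.17.1 and plots in matplotlib 3.10.9.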

Additional observations from a re-analysis of the deposited data

Results flagged for a closer look

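Over 78 groups of 4 libraries tested for 1 value far from the others by Dixon's criterion, 10 were found, and chance gives about 1 in 20. In the St18+ sums, *Lhx6* was highest in null replicate 2 at 605 CPM, against 409 to 428 CPM in the other libraries. *Gbx1* was highest in WT replicate 2 at 10.3 CPM (others 4.78 to 5.16 CPM), as were *Sst* at 53.9 CPM (others 3.94 to 5.52 CPM) and *Nefl* at 16.9 CPM (others 1.19 to 3.68 CPM). The globin genes were highest in WT replicate 1: *Hbb-bs* at 398 CPM, *Hba-a1* at 158 CPM, *Hba-a2* at 128 CPM and *Hbb-bt* at 241 CPM. In the St18-0 sums, *Zic1* was highest in WT replicate 2 at 131 CPM (others 73.1 to 82.7 CPM) and *Cdc6*, a replication licensing gene, in null replicate 1 at 12.8 CPM (others 8.22 to 8.85 CPM).

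The St18+ against St18-0 difference depended on genotype in the interaction test for 6 genes, with log2 values of -3.83 for *Tac1*, 0.43 for *Epha5*, -1.23 for *Sox3*, -8.54 for *Tyrobp*, 2.11 for *Crabp1* and -0.96 for *Nefm*. *Tyrobp* was at 0 in 3 of the 4 St18+ sums, so its value depends on the prior count and is no bound on the fold.

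Outside the neuronal gate, barcodes with at least 2 UMIs over *Hes1* and *Hes5* held 2 or more *St18* UMIs in 7.01% of 713 barcodes in null replicate 2, above the 2.40% and 1.86% of the WT libraries and the 1.30% of null replicate 1. These shares were not thinned, and the barcodes of null replicate 2 were deeper, with a median of 13594 UMIs against 9159 to 10334 UMIs in the other libraries.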

How the results depend on the processing

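For St18+ against St18-0 neurons, where the library is the replicate block, 3680 genes passed; the count was 2239 with DESeq2, 2246 between 5000 and 10000 UMIs, 1532 in male cells, 93 in neurons without *Stmn2* or *Mapt* UMIs (chosen after seeing the data) and 1191 with no replicate block; leaving out 1 library gave 2516 to 3251. For null against WT in St18+ neurons, 50 genes passed: 87 with DESeq2, 233 without a filter on low counts, 7 between 5000 and 10000 UMIs, 17 with at least 3 *St18* UMIs, 0 in male cells, 109 up to the 95th percentile of UMIs, and 8 and 3 (both chosen after seeing the data) without barcodes found in more than 1 library and without *Stmn2* or *Mapt* UMIs. Without 1 library there were 25 (without WT replicate 2) to 1200 (without null replicate 1). In St18-0 neurons 3 passed: 254 with DESeq2, 727 without the filter, 12 between 5000 and 10000 UMIs, 1 in male cells, 22 without *Stmn2* or *Mapt* UMIs and 6 without erythroid, microglial or endothelial signal (both chosen after seeing the data), and 20 to 3433 without 1 library. For the interaction 6 passed: 3 with library totals alone, 0 with DESeq2, 22 without the filter, 25 with at least 3 *St18* UMIs, 1 in male cells, 11 up to the 95th percentile, 3 without *Stmn2* or *Mapt* UMIs and 17 to 29 without 1 library. Where only 1 library of a genotype was left, it was assumed to vary like the other genotype. The cause of these shifts was not tested.

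The shares thinned to 3000 UMIs were 1.03%, 4.61%, 2.64% and 2.92%, and with a minimum of 5000 UMIs the WT shares were 8.23% and 11.2%. Among the named genes of the St18+ against St18-0 comparison other than the markers, 1084 values stayed on the same side of the threshold, 87 fell short of it, 8 came to pass it and 19 changed sign. Without *Stmn2* or *Mapt* UMIs, those were *Lhx8* (0.46), *Zeb2* (-0.32), *Zic1* (0.69), *Isl1* (0.74), *Npy* (-0.47), *Epha4* (-0.40), *Dll3* (-0.12), *Sox11* (-0.0082), *Mki67* (-0.071), *Top2a* (-0.028), *Vim* (-0.24) and *Mfng* (-0.24). Of these, *Zic1*, *Npy* and *Epha4* passed the threshold in the direction given. The marker *Rnd2* lay at -0.06 there. Between 5000 and 10000 UMIs they were *Lhx8* (0.071), *Cbx7* (-0.15) and *Mki67* (-0.13); up to the 95th percentile, *Lhx8* (0.026) and *Cbx7* (-0.0048); without 1 library, *Cbx7* (-0.074 to 0.099, the lowest without null replicate 2); in male cells, *Tac1* (0.17). In the null against WT comparison, *Hbb-bs* and *Hba-a2* lay at 0.27 and 0.25 between 5000 and 10000 UMIs. In the interaction, *Tac1*, *Epha5* and *Nefm* lay at 1.84, -0.17 and 0.19 there, *Tac1* at 0.64 up to the 95th percentile and *Epha5* at -0.39 without *Stmn2* or *Mapt* UMIs. No paired analysis was possible for null against WT because the labels carry no replicate numbers. With 172 to 446 St18+ neurons per library and 2 libraries per genotype, genes of a few CPM were not resolved.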

Other observations

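Families looked at after their first members had been seen are given as values, without support drawn from them. All 6 subunits of the MCM helicase, which is loaded onto DNA before S phase, stood higher in St18+ than in St18-0 neurons, with log2 differences of 0.48 to 1.02. *Mcm2* was at 71.1, 80.3, 86.8 and 79.3 CPM in the St18+ neurons of null replicates 1 and 2 and WT replicates 1 and 2, against 47.6, 41.6, 32.7 and 32.3 CPM. The loading factor genes *Cdc6* and *Cdt1* lay at 1.16 and 1.09. The MCM differences were 0.50 to 1.05 between 5000 and 10000 UMIs, where *Mki67* was at -0.13, and 0.32 to 0.72 in neurons without *Stmn2* or *Mapt* UMIs. Under the last limit only *Mcm4* of the 6 passed the threshold.

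*Ccnd2*, a D cyclin of intermediate progenitors, was at 1446, 1471, 1453 and 1105 CPM in St18+ and 780, 742, 593 and 521 CPM in St18-0 neurons, a log2 difference of 1.04. *Ccnd1* went the other way at -0.54, and *Ccnd3* lay at 0.51. Of the nuclear factor I genes, *Nfix*, *Nfia* and *Nfib* lay at 1.55, 1.32 and 0.88 and *Nfic* at 0.14, with *Nfic* at 12.9 to 17.5 CPM in the St18+ neurons and *Nfib* at 535 to 883 CPM.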
